A study of Mus musculus with 6 samples.

Results

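The vascular endothelial growth factor (VEGF) axis was followed through 6 mouse RNA-Seq libraries as 10 genes, chosen by name: the ligands *Vegfa*, *Vegfb*, *Vegfc*, *Figf* (the symbol these files use for VEGF-D) and *Pgf*, the receptors *Flt1*, *Kdr* and *Flt4*, and the co-receptors *Nrp1* and *Nrp2*. All 10 were among the 30281 gene symbols of the deposited table. The libraries were 1 each of *Tsc2*-/- p53-/- and *Tsc2*+/+ p53-/- mouse embryo fibroblasts (MEFs), neither treated, and 1 each of untreated and rapamycin-treated MKOC and TJ cells. MKOC and TJ are kidney epithelial cell lines labelled *Tsc2*-null, and TJ cells are further labelled as derived from a secondary tumor in C57BL6 mice. Rapamycin was given at 100 nM for 18 hours without serum, and the other kidney libraries had diluent. No kidney line labelled as *Tsc2*+/+ was among the libraries, and no MEF library had rapamycin. With 1 library per condition, the 2 kidney lines served as each other's replicate for the effect of rapamycin.

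VEGF ligands are secreted dimers that bind receptor tyrosine kinases on endothelial cells. VEGF-A acts mainly through *Kdr* (VEGFR-2) to drive growth of blood vessels, whereas VEGF-C and VEGF-D act through *Flt4* (VEGFR-3) on lymphatic vessels. *Flt1* (VEGFR-1) binds VEGF-A, VEGF-B and placental growth factor (*Pgf*), and a secreted form of it traps ligand. Neuropilins are co-receptors shared by VEGFs and most class 3 semaphorins. *Tsc2* encodes tuberin, a brake on mTORC1, the kinase complex that rapamycin inhibits, and *Vegfa* is a classical target of hypoxia-inducible factors. Lymphangioleiomyomatosis, the disease that the study addresses, affects the lymphatic system of the lung, and VEGF-D is used as its serum marker.

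The ligand genes whose RNA moved in opposite directions under rapamycin, *Vegfa* and *Figf*, are shown with *Vegfb*, which lay between them, by the 250 bases before their first start in RefSeq (GRCm38.p6, minus strand for *Vegfa* and *Vegfb*, plus strand for *Figf*). Capitals mark the hypoxia response element cores ACGTG and GCGTG and the GC box GGGCGG. Each was searched on both strands, and adjoining or overlapping matches run together.
Vegfa (chr17:46032378-46032627): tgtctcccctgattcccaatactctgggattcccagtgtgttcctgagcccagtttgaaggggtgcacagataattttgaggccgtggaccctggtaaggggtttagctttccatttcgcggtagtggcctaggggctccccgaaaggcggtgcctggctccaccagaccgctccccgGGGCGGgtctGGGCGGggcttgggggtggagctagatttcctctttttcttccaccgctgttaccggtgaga
Vegfb (chr19:6987652-6987901): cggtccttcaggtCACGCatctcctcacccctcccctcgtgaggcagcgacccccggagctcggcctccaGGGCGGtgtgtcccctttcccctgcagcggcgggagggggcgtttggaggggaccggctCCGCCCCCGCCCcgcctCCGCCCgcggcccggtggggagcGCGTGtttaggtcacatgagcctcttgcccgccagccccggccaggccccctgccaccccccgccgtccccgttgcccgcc
Figf (chrX:164373272-164373521): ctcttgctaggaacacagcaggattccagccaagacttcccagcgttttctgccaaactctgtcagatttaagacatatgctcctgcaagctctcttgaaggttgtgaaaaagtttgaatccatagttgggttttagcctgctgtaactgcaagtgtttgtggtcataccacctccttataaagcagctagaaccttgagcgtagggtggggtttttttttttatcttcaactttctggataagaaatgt
This *Vegfa* window held 2 GC boxes and 0 hypoxia cores, and that before a second RefSeq start inside the gene (chr17:46025164-46025413) held 1 GC box and 2 cores. The *Vegfb* window held 4 GC boxes and 2 cores, and that of *Figf* held neither motif. Among all 32851 promoter windows of this length, 38.6% held a core and 32.7% a GC box, so both motifs were common. GC content was 59.2% (*Vegfa*), 76.4% (*Vegfb*) and 42.4% (*Figf*). A match describes the letters of the window, and no binding was measured.

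Estimated counts summed to between 22887020 (MKOC rapamycin) and 37505004 (*Tsc2*+/+ MEFs) per library. In *Tsc2*+/+ MEFs, transcripts under 300 bases took 20.9% of all TPM (a level per length that sums to the same total in every library), against 4.09% to 7.998% in the other libraries. *Tsc2* RNA was lower in the *Tsc2*-/- (10.5 TPM) than in the *Tsc2*+/+ MEFs (22.6 TPM), but was not absent there or in the kidney libraries labelled *Tsc2*-null (19.1 to 49.1 TPM), and *Trp53* RNA was present in both MEF libraries. Levels per gene do not show which part of a gene the reads came from. Kidney epithelial markers were there in part: 9 of 13 were at 1 TPM or more in each kidney library, but *Epcam* and *Cldn7* were at or near 0. Of 12 fibroblast markers, 10 and 11 reached 1 TPM in *Tsc2*+/+ and *Tsc2*-/- MEFs, and 5 or 6 did in each kidney library. Among these, *Vim* was higher in the kidney libraries (3609 to 7523 TPM) than in the MEFs (3522 and 1118 TPM). The libraries held few endothelial transcripts: of 14 endothelial markers, 1 to 3 reached 1 TPM, their summed level was 5.19 to 19.2 TPM, with *Egfl7* the highest in each, and *Cldn5* and *Sox17* were at 0 throughout. In bulk RNA, fewer cells of a type cannot be told apart from less RNA per cell.

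Ligand RNA far exceeded receptor RNA in every library (the plot of levels by library). The summed level of the 5 ligands was 219.5 TPM and 477.8 TPM in *Tsc2*+/+ and *Tsc2*-/- MEFs, 304.5 TPM and 324.3 TPM in untreated MKOC and TJ cells, and 199.2 TPM and 185.7 TPM after rapamycin. The 3 receptors together reached 3.30 TPM and 7.49 TPM in the MEFs and at most 0.122 TPM in the kidney lines. The neuropilins summed to between 51.3 and 95.8 TPM, so both cell types carried the co-receptors with little RNA of the kinases.

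**Figure D1:**
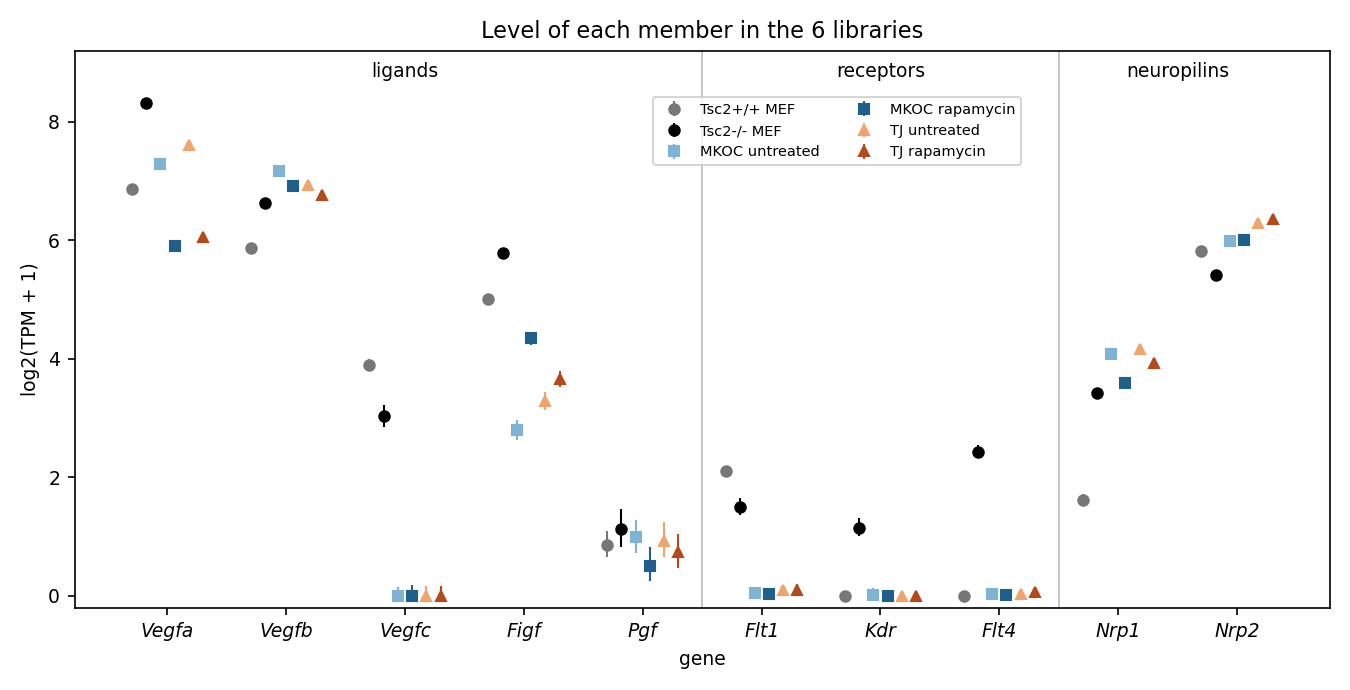
Level of the 10 genes in the 6 libraries, as log2(TPM + 1), with exact Poisson 95% intervals that cover counting error only. The ligands *Vegfa* and *Vegfb* and the co-receptor *Nrp2* were at 41.6 TPM or more in every library, whereas *Vegfc* was at 0 in the 4 kidney libraries and *Flt1*, *Kdr* and *Flt4* were at 0.0768 TPM or less there.

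*Vegfa* (chr17:46016993-46032369, minus strand, GRCm38), the main angiogenic ligand, was at 116 TPM in *Tsc2*+/+ and 317 TPM in *Tsc2*-/- MEFs. It was at 155 TPM in MKOC and 194 TPM in TJ cells untreated, and at 59.2 TPM and 65.7 TPM after rapamycin. The *Tsc2*-/- MEFs were thus highest and the rapamycin libraries lowest, and no neighbours in the order had overlapping counting intervals. These intervals are exact Poisson 95% intervals on the estimated counts and leave out the spread between cultures.

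*Vegfb* (chr19:6982473-6987651, minus strand), a ligand of *Flt1*, varied least among the 5 ligands. Its levels were 57.7 TPM and 98.3 TPM in *Tsc2*+/+ and *Tsc2*-/- MEFs, 143 TPM and 120.2 TPM in MKOC cells without and with rapamycin, and 121 TPM and 108 TPM in TJ cells. The highest library was 2.48 times the lowest, against 5.35 times for *Vegfa*. TJ untreated and MKOC rapamycin did not differ beyond counting error, nor did TJ rapamycin and *Tsc2*-/- MEFs. The ratio of *Vegfa* to *Vegfb* was 1.08 without and 0.493 with rapamycin in MKOC cells, 1.60 and 0.610 in TJ cells, and 2.01 and 3.23 in *Tsc2*+/+ and *Tsc2*-/- MEFs.

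The lymphatic ligands were split by cell type. *Vegfc* (chr8:54077606-54187096, plus strand) was at 13.9 TPM (742 counts) in *Tsc2*+/+ and 7.22 TPM (190 counts) in *Tsc2*-/- MEFs, and had 0 counts in all 4 kidney libraries, where a count of 0 allows up to 0.0878 to 0.113 TPM (3 counts). *Figf* (chrX:164373378-164402650, plus strand) was at 31.2 TPM and 54.2 TPM in the MEFs, at 5.97 TPM and 19.4 TPM in MKOC cells without and with rapamycin, and at 8.83 TPM and 11.7 TPM in TJ cells. Every MEF library lay above every kidney library for both genes. *Pgf* (chr12:85166635-85177790, minus strand) was at 0.412 to 1.20 TPM, on 9 to 36 counts, and the intervals of all neighbours in its order overlapped.

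The receptors were at MEF levels of a few TPM or less. *Flt1* (chr5:147561604-147726011, minus strand) was at 3.30 TPM in *Tsc2*+/+ and 1.85 TPM in *Tsc2*-/- MEFs, and at 0.0191 to 0.0768 TPM, on 2 to 9.02 counts, in the kidney lines. *Kdr* (chr5:75932827-75978458, minus strand) had 109 counts (1.23 TPM) in *Tsc2*-/- MEFs, 1 count in untreated MKOC cells and 0 in the other 4 libraries. *Flt4* (chr11:49609263-49652739, plus strand) had 415 counts (4.41 TPM) in *Tsc2*-/- and 0 in *Tsc2*+/+ MEFs, and 1 to 5 in the kidney lines. *Kdr* and *Flt4* RNA was therefore above the floor of 3 counts in the *Tsc2*-/- MEFs, with only TJ rapamycin (5 counts of *Flt4*) above it elsewhere.

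The neuropilins were in every library, and *Nrp2* exceeded *Nrp1* in each. *Nrp1* (chr8:128358604-128503363, plus strand), the VEGF-A co-receptor, was at 2.09 TPM and 9.71 TPM in *Tsc2*+/+ and *Tsc2*-/- MEFs, 15.9 TPM and 11.1 TPM in MKOC cells without and with rapamycin, and 16.9 TPM and 14.2 TPM in TJ cells. *Nrp2* (chr1:62703285-62818695, plus strand), which also binds VEGF-C, was at 55.8 TPM and 41.6 TPM in the MEFs, 62.8 TPM and 63.5 TPM in MKOC cells, and 77.2 TPM and 81.5 TPM in TJ cells. The ratio of *Nrp2* to *Nrp1* was 26.7 in *Tsc2*+/+ MEFs and 3.94 to 5.74 in the other 5 libraries. Of the 10 genes, only *Nrp1* shared exon bases with another annotated gene (80 bases, a microRNA).

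The rapamycin libraries addressed which VEGF genes respond to mTORC1 inhibition in kidney cells labelled *Tsc2*-null. *Tsc2* RNA itself fell (edgeR log2 -1.27, SE 0.10, adjusted p = 2.3e-05), from 49.1 to 19.5 TPM in MKOC and from 44.0 to 19.1 TPM in TJ cells. *Vegfa* fell in both lines, to 0.383 of its untreated TPM in MKOC cells and 0.339 in TJ cells. *Figf* rose in both, by a TPM ratio of 3.24 in MKOC and 1.32 in TJ cells, and *Nrp1* fell to 0.697 and 0.841. With the cell line as a term, edgeR gave a log2 fold change of -1.55 (SE 0.10, adjusted p = 8.5e-06) for *Vegfa*, 1.06 (SE 0.26, adjusted p = 0.010) for *Figf* and -0.39 (SE 0.12, adjusted p = 0.0238) for *Nrp1*. These 3 were all the calls among the 6 members with enough counts to be tested. Over all 12952 genes tested, 34.9% were called (17.5% higher and 17.4% lower), so a call by itself set a member little apart. The median log2 change of the 6 was -0.31, against 0.02 over all genes tested. Only 0.996% of genes had a lower log2 change than *Vegfa*, and 4.62% had a higher one than *Figf*.

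**Figure D2:**
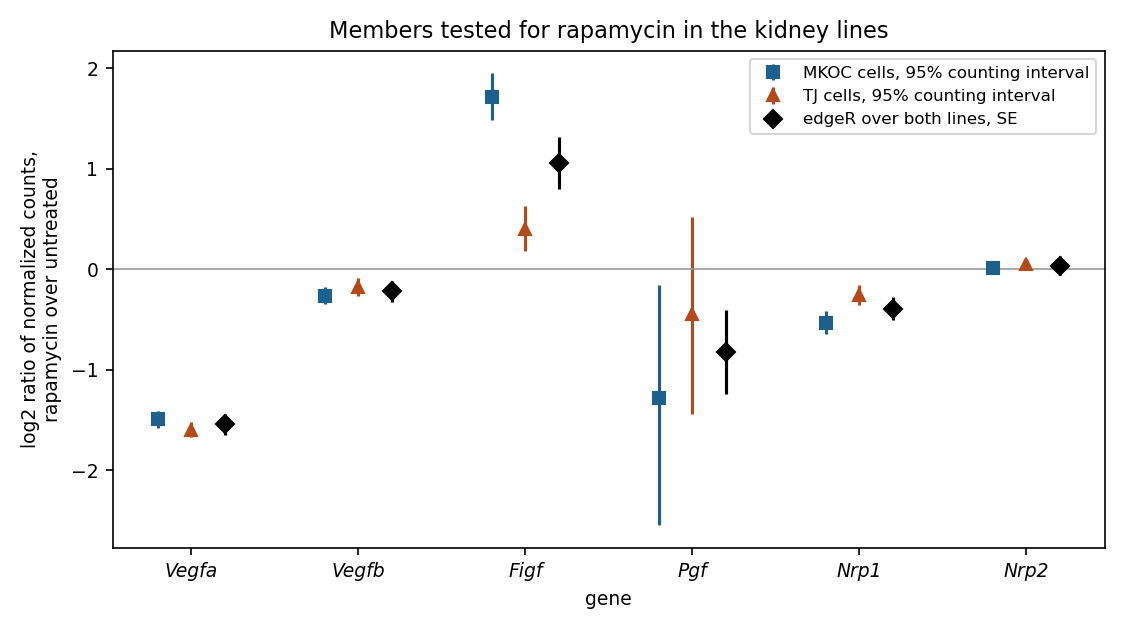
Log2 ratio of normalized counts, rapamycin over untreated, for the 6 members tested. Squares and triangles are single lines with 95% counting intervals, and diamonds are edgeR estimates over both lines with their SE. *Vegfa* was at -1.49 and -1.60 in the 2 lines, whereas the intervals of *Figf* in MKOC (1.49 to 1.95) and TJ cells (0.18 to 0.63) did not overlap.

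For *Vegfa* the log2 count ratios were -1.49 (95% counting interval -1.58 to -1.41) in MKOC and -1.60 (-1.67 to -1.53) in TJ cells. For *Figf* they were 1.72 (1.49 to 1.95) and 0.40 (0.18 to 0.63), so that its pooled change rests mostly on MKOC cells. For *Nrp1* they were -0.53 (-0.64 to -0.42) and -0.26 (-0.36 to -0.15). The difference between lines could not be tested with 1 library per line and treatment. *Vegfb* (log2 -0.22, SE 0.10, adjusted p = 0.123) and *Pgf* (-0.82, SE 0.42, adjusted p = 0.154) did not pass the edgeR threshold, nor did *Nrp2* (0.03, SE 0.10, adjusted p = 0.815), whose ratios were 0.01 and 0.06. The call of *Nrp1* did not hold under DESeq2 (adjusted p = 0.0633) or limma (adjusted p = 0.109), and without the cell line term in edgeR neither *Nrp1* (adjusted p = 0.160) nor *Figf* (adjusted p = 0.0896) was called. *Vegfc*, *Flt1*, *Kdr* and *Flt4* were too low to test.

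The makeup of the ligand RNA differed with treatment in the kidney lines. *Vegfa* made up 50.8% of summed ligand TPM in untreated MKOC cells and 29.7% after rapamycin, and 59.7% and 35.4% in TJ cells. The share of *Vegfb* was 46.9% and 60.3% in MKOC and 37.3% and 58.0% in TJ cells. That of *Figf* was 1.96% and 9.72% in MKOC and 2.72% and 6.29% in TJ cells. In both lines *Vegfb* was the most abundant ligand after rapamycin and *Vegfa* before it, by TPM over all transcripts. With transcripts that have no coding region left out, *Vegfb* (140.3 TPM) was above *Vegfa* (106.6 TPM) in untreated MKOC cells too, while in untreated TJ cells *Vegfa* (140.3 TPM) stayed above *Vegfb* (118.7 TPM). These shares have 1 library per condition and no test. Summed kidney epithelial markers were also higher after rapamycin, at 2174 and 2564 TPM against 1518 and 1728 TPM untreated. Of the 9 tested, 4 rose and 0 fell, and of 11 fibroblast markers 3 rose and 0 fell, where 17.5% of all genes tested rose. Macrophage markers had 2 of 3 tested higher and 0 lower (*Cd14* 0.75 and *Csf1r* 0.45 on the log2 scale). *Cd68*, the third, went from 7.08 to 5.33 TPM in MKOC and from 8.01 to 4.48 TPM in TJ cells and was not called. *Ptprc*, *Adgre1*, *Itgam* and *Lyz2*, also listed, were under 1 TPM in each kidney library. The podocyte gene *Synpo* (1.62), the mesothelial gene *Msln* (0.70) and the lymphatic gene *Pdpn* (0.43) rose. The part of these marker genes in the ligand result was not tested.

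Genes that act with the VEGF axis were read in the same edgeR fit, as lists of known function (the plot of pathway lists), whose counts stand beside 17.5% of all genes tested that rose and 17.4% that fell. Among 14 regulators of *Vegfa* transcription and mRNA decay, 3 rose and 5 fell (median log2 -0.12). The largest changes were in *Egln3* (log2 -1.88, SE 0.11, adjusted p = 5.0e-06), a hypoxia-induced prolyl hydroxylase, and *Hif1a* (-1.46, SE 0.11, adjusted p = 1.5e-05), the hypoxia-inducible factor subunit. *Ppargc1a*, a coactivator of mitochondrial genes, was at -0.76. *Hif1a* went from 225 to 87.7 TPM in MKOC and from 327 to 114 TPM in TJ cells, and *Egln3* from 60.0 to 16.3 TPM and from 89.4 to 24.6 TPM. Both were lower in each rapamycin library than in either untreated library, as *Vegfa* was.

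Of 7 class 3 semaphorins, most of which bind neuropilins, 5 rose and 0 fell (median log2 0.66), beside 17.5% and 17.4% of all genes tested and their median of 0.02. *Sema3e* (1.14), which binds a plexin directly, *Sema3f* (0.91) and *Sema3a* (0.81) rose most. Of 7 plexins tested, receptors of several semaphorin classes, 2 rose, *Plxnb1* (1.46) and *Plxna1* (0.36). Of 4 tested genes for processing of VEGF-C and VEGF-D, 2 rose: *Ccbe1* (0.67), a cofactor of VEGF-C cleavage, and *Furin* (0.36), a proprotein convertase. The VEGF receptor signal transduction list had 3 of 27 higher and 2 lower (median log2 -0.07), a smaller share than among all genes tested (34.9%). *Hspb1* (0.88), *Src* (0.69) and *Map2k1* (-0.67) led it. Of 10 other angiogenic ligands and receptors, 2 rose (*Pdgfb* 1.08, *Met* 0.91) and 1 fell (*Apln* -0.62). Of 9 angiogenesis inhibitors, 3 rose, led by the thrombospondin gene *Thbs1* (1.80), and 2 fell, *Serpinf1* (-1.87) and *Adamts1* (-0.62).

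**Figure D3:**
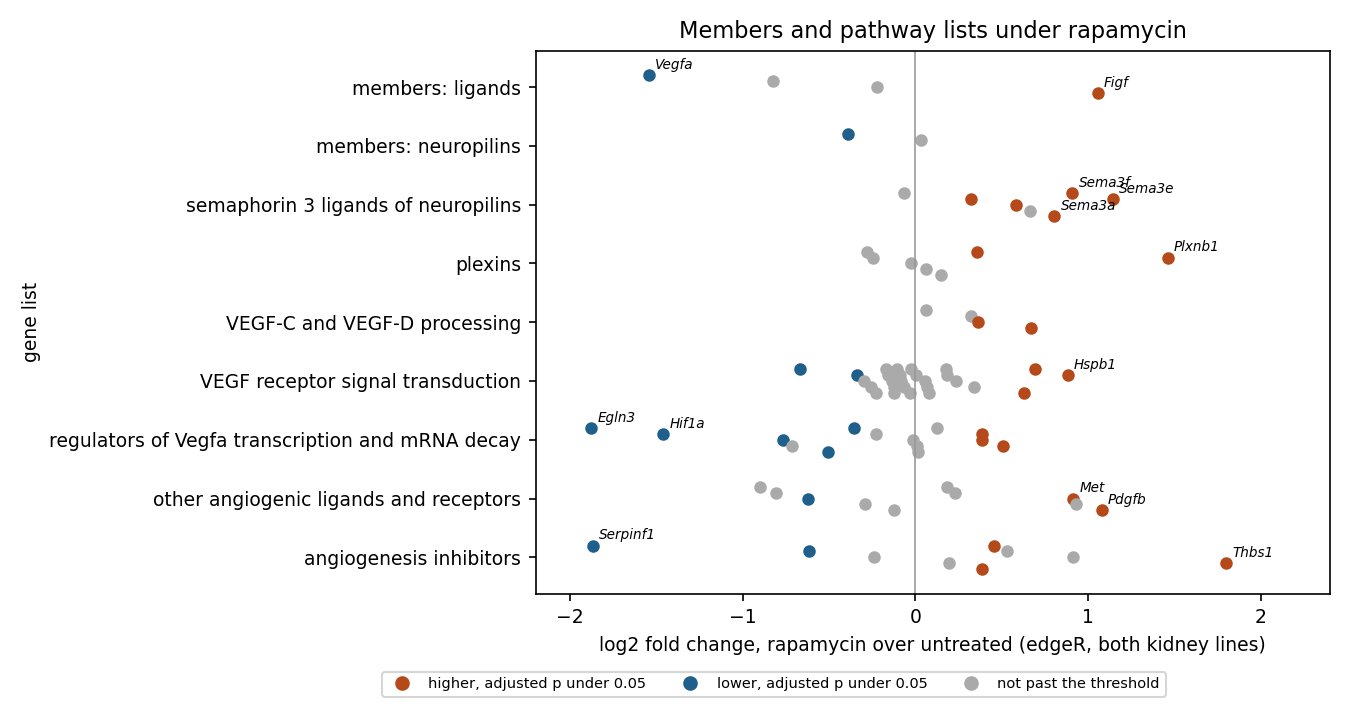
Log2 fold change, rapamycin over untreated, of each tested member and each tested gene of 7 pathway lists (edgeR over both kidney lines). Colored points passed an adjusted p of 0.05 and grey points did not. *Vegfa* (-1.55), *Hif1a* (-1.46) and *Egln3* (-1.88) lie to the left, and the semaphorins that passed lie to the right.

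TJ against MKOC cells compared the tumor-derived line with the other kidney line, with treatment as a term. With no second culture of either line labelled, the p-values here do not measure the spread between cultures of a line. With edgeR, 0 of 6 members tested passed the threshold, where 8.79% of all genes did (5.47% higher in TJ cells and 3.32% lower). *Nrp2* (log2 0.29, SE 0.10, adjusted p = 0.0903) and *Vegfa* (0.29, SE 0.10, adjusted p = 0.105) were higher in TJ cells in both treatments and were the 2 with an unadjusted p under 0.05. DESeq2 and limma also called 0 of 6. *Vegfb* was at -0.22 (SE 0.10, adjusted p = 0.235), *Nrp1* at 0.20, *Pgf* at 0.18 and *Figf* at -0.13. These values do not show that the lines were alike: for *Figf*, TJ cells had 1.48 times the TPM of MKOC cells untreated and 0.604 times after rapamycin. Among the lists, *Sema3a* (-1.53, SE 0.10, adjusted p = 3.2e-05) was lower and *Sema3c* (0.81) higher of 7 semaphorins. Of 14 *Vegfa* regulators 4 were higher in TJ cells (*Ppargc1a* 0.85, *Zfp36l1* 0.72 and *Egln3* 0.57 most) and 0 lower. Of 9 angiogenesis inhibitors 4 were higher (*Serpinf1* 1.93, *Cxcl10* 1.60 and *Col4a3* 1.04 most) and 1 lower. Of 7 plexins 2 were higher (*Plxnd1* 0.64 and *Plxna1* 0.46), and of 10 other angiogenic genes 2 (*Pdgfrb* 2.63 and *Apln* 0.71). *Pdgfrb* had only 2 to 17 counts per kidney library. Of 27 signal transduction genes 0 were higher and 1 lower (*Mapk3* -0.47). For the processing list, 0 of 4 passed. Of the cell type markers, the macrophage genes *Csf1r* (0.94) and *Cd14* (0.76), the podocyte gene *Synpo* (0.48), the kidney epithelial gene *Cdh16* (0.47) and *Pdgfrb*, also a fibroblast marker, were higher, and the fibroblast genes *Dcn* (-2.12) and *Fn1* (-1.29), the endothelial gene *Cdh5* (-1.57) and the mesothelial gene *Msln* (-0.43) lower.

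In the MEFs, the comparison addressed *Tsc2* loss with 1 library per genotype, so it has no replicate check and no p-values. *Vegfa* was 2.74 times as high in *Tsc2*-/- as in *Tsc2*+/+ MEFs by TPM and *Nrp1* 4.65 times. *Flt4* and *Kdr* had 0 counts in the *Tsc2*+/+ library, and their *Tsc2*-/- TPM was 282 and 74.1 times its 3-count floor. These 2 ratios leave out counting error and the shift of all symbols between the libraries. *Vegfb* (1.70 times) and *Figf* (1.74 times) were higher by less than 2-fold. *Vegfc* (0.518 times), *Flt1* (0.559 times) and *Nrp2* (0.745 times) were lower. For *Pgf*, the counting intervals of the 2 libraries overlapped.

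On log2(TPM + 1), 4 of 10 members were at least 2-fold higher in *Tsc2*-/- MEFs and 0 lower, where 25.2% and 5.18% of 12771 symbols were (30.4% either way). The differences were 2.44 for *Flt4*, 1.79 for *Nrp1*, 1.44 for *Vegfa* and 1.15 for *Kdr*, scales on which a low gene's change is understated. The median of the 10 was 0.77, but all symbols had a median of 0.45, and relative to it *Nrp1* stood at 1.34 and *Flt4* at 1.98, while *Vegfa* (0.99) and *Kdr* (0.70) were under 2-fold. On that footing *Vegfc* (-1.31) and *Flt1* (-1.05) were more than 2-fold lower, *Pgf* turned to -0.18, and 23.7% of all symbols were past 2-fold. Of all symbols, 3222 were 2-fold higher and 662 lower on TPM, 2019 and 1048 when TPM was scaled to a median ratio of 1, and 2327 and 1011 on CPM (counts scaled to the library total). With scaled TPM, 8 members still reached 1 TPM in either library, and of these 3 were 2-fold higher and 1, *Vegfc*, lower. *Kdr*, at 0.95, was under 2-fold and under that filter. Of the 10 members on CPM, 4 were higher and 2 lower (*Vegfc* and *Flt1*). The direction of each of the 10 members was the same on these 3 scales.

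**Figure D4:**
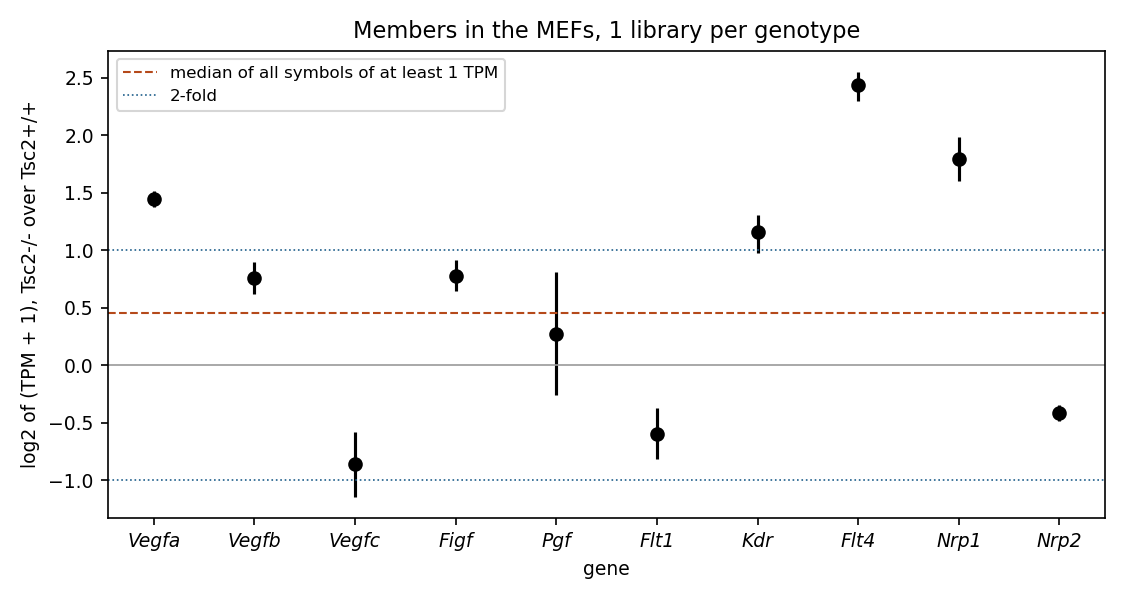
Difference between the 2 MEF libraries in log2(TPM + 1) for the 10 members, with intervals from counting error only. The dashed line is the median of all symbols (0.45) and the dotted lines mark 2-fold. *Flt4*, *Nrp1*, *Vegfa* and *Kdr* lie above the upper dotted line and *Vegfc*, *Flt1* and *Nrp2* lie below 0.

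Other cells' markers differed between these 2 libraries. All 7 mesothelial markers were higher in *Tsc2*-/- MEFs, with a summed level of 533 TPM against 2.71 TPM, among them *Wt1* (81.6 against 0.0668 TPM) and *Upk3b*. The 6 podocyte markers, which share *Wt1*, summed to 262 TPM against 7.91 TPM. The 14 endothelial markers summed to 13.04 TPM against 5.19 TPM, with 8 of the 14 higher in *Tsc2*-/- MEFs, 2 lower and 4 (*Cldn5*, *Emcn*, *Robo4* and *Sox17*) at 0 in both. The higher ones included *Esam* (3.68 against 0.190 TPM), *Vwf* (1.94 against 0.651 TPM), *Plvap* (0.740 against 0.0870 TPM), *Erg* (0.552 against 0.0110 TPM) and *Tek* (0.356 against 0.00794 TPM). *Pecam1* was at 0.193 against 0.285 TPM and *Cdh5* at 0.0339 against 0.00834 TPM. The lymphatic list, which holds *Flt4* itself, had *Pdpn* at 76.3 against 24.8 TPM, *Prox1* at 0.0167 against 0.0107 TPM, *Lyve1* at 1 count against 0 and *Ccl21a* at 0 in both. The 7 macrophage markers summed to 18.2 TPM against 6.15 TPM, with 3 of 3 compared at least 2-fold higher (*Cd68* 1.53, *Csf1r* 1.45 and *Cd14* 1.13 on the log2 scale). The others were under 1 TPM in both MEF libraries and were not compared. *Lyz2* was lower (0.119 against 0.740 TPM), *Ptprc* (0.0732 against 0.00716 TPM) and *Itgam* (0.286 against 0.0404 TPM) were higher, and *Adgre1* was at 0 in both. The kidney epithelial markers summed to 101.5 TPM against 11.9 TPM, with 3 of 3 compared higher (*Krt19* 5.75 and *Krt18* 4.43 most), and of 11 fibroblast markers 3 were higher and 3 lower. The part of all these marker genes in the VEGF differences was not tested.

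The 7 lists had medians above that of all symbols (0.45) in the MEFs, and their counts stand beside 25.2% of symbols 2-fold higher and 5.18% lower. Of 6 semaphorins compared, 5 were at least 2-fold higher in *Tsc2*-/- MEFs and 0 lower (median log2 1.95), led by *Sema3c* (4.22), *Sema3d* (3.20) and *Sema3e* (2.13). Of 7 genes for processing of VEGF-C and VEGF-D, 5 were higher (median 1.38), with *Ccbe1* at 2.56, *Pcsk5* at 1.98 and the protease gene *Adamts3* at 1.68. Of 8 plexins, 3 were higher (*Plxna4* 4.11, *Plxna1* 2.12, *Plxnb2* 1.43). Among 13 *Vegfa* regulators, 4 were higher, led by *Egln3* (3.50), which had 396 counts in *Tsc2*-/- and 0 in *Tsc2*+/+ MEFs. *Hif1a* was at 83.3 and 178 TPM. Of 26 signal transduction genes, 6 were higher, *Hspb1* (6.60) most, and 1 lower, about the share among all symbols. Of 12 other angiogenic genes, 5 were higher and 1, *Angpt1* (-1.98), lower, with *Angpt4* at 1.98 and *Angpt2* at 1.96. Of 9 inhibitors, 5 were higher (*Thbs1* 3.97, *Adamts1* 3.37) and 1 lower (*Cxcl10* -4.59).

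*Vegfa* is spliced into proteins that differ in a heparin-binding tail. In these annotations (GENCODE M21), its coding transcripts differ by a 72-base and a 132-base exon after a shared 30-base exon (chr17:46024065-46024094). The junctions that tell them apart are shown as the last 20 bases of the shared exon in lower case and the first 20 bases after it in capitals.
Vegfa-201, neither exon (next exon from chr17:46018861-46018879): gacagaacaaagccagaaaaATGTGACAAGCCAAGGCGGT
Vegfa-202, 132-base exon (chr17:46020991-46021122): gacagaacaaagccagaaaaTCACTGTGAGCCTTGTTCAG
Vegfa-207, 72-base exon and then the 132-base exon (chr17:46022277-46022348): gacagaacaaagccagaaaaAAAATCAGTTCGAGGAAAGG
A transcript with the 72-base exon alone, Vegfa-203, shares the last junction and is annotated over its coding region alone (513 bases).

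Transcripts with the 132-base exon alone were the most abundant coding class in 5 of 6 libraries and about level with the class lacking both exons in MKOC rapamycin (the plot of coding transcripts). Their share of coding *Vegfa* TPM was 59.0% in *Tsc2*+/+ and 52.3% in *Tsc2*-/- MEFs, 38.9% and 30.6% in MKOC cells without and with rapamycin, and 42.6% and 37.1% in TJ cells. As a share of all *Vegfa* counts, the same class was at 59.5% and 62.9% in the MEFs, the opposite order, and at 51.8% and 43.2% in MKOC and 58.2% and 47.3% in TJ cells. The 513-base transcript with the 72-base exon alone was at 10.5% and 23.3% of coding TPM in *Tsc2*+/+ and *Tsc2*-/- MEFs, on 61.6 and 232 counts, and at 21.005% to 28.8% in the kidney lines. The class lacking both exons, the most diffusible form, was at 29.1%, 18.4%, 25.3%, 30.6%, 21.1% and 34.3% in the same order. The 132-base class was thus lower and the class with neither exon higher after rapamycin in both lines. In TPM, the 132-base class after rapamycin was at 0.298 of its untreated level in MKOC and 0.270 in TJ cells, and that with neither exon at 0.459 and 0.503. Transcripts with both exons made up 1.42% in *Tsc2*+/+ MEFs and 6.06% to 12.7% elsewhere. Retained-intron transcripts, which have no coding region, took 27.5% to 49.2% of all *Vegfa* TPM (49.2% in *Tsc2*+/+ and 38.9% in *Tsc2*-/- MEFs) and 8.42% to 15.5% of its counts, so the gene levels above include them. Kallisto divides reads among transcripts that share most bases, and these shares had no replicate and no test.

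**Figure D5:**
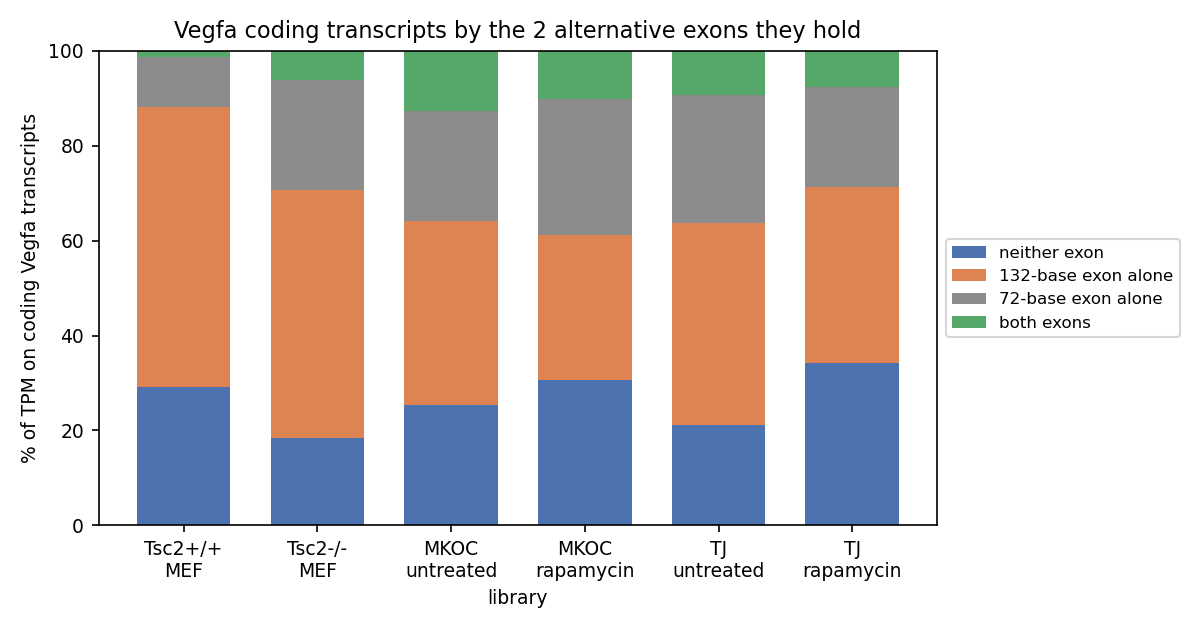
Share of TPM on coding *Vegfa* transcripts, in percent, by which of the 72-base and 132-base exons they hold, in each of the 6 libraries. The share with neither exon was larger after rapamycin in MKOC (25.3% to 30.6%) and TJ cells (21.1% to 34.3%) and smaller in *Tsc2*-/- (18.4%) than in *Tsc2*+/+ MEFs (29.1%).

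Other members also had forms of known function. Soluble *Flt1* made up 26.2% of coding *Flt1* TPM in *Tsc2*+/+ and 40.1% in *Tsc2*-/- MEFs, where the membrane form was at 0.453 and the soluble form at 0.856 of their *Tsc2*+/+ levels. *Nrp2* transcripts ending in a coding exon of 278 bases rather than 302 bases were 14.2% of coding TPM in *Tsc2*+/+ and 36.4% in *Tsc2*-/- MEFs, and 30.7% to 37.9% in the kidney lines. The longer coding form of *Vegfb* was at 56.4% to 62.7% in all 6 libraries, so its 2 forms kept a near-constant ratio. All 35 member transcripts in the table were in GENCODE M21, 32 with the same length.

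The genes whose TPM followed each member most closely were ranked by Pearson r over the 6 libraries, as a description of points that share cell type and treatment. For *Vegfa* they were *Ebna1bp2* (0.992), *Ppa1* (0.990) and *Tdg* (0.989), and 0.854% of the 6092 genes compared exceeded 0.95. For *Figf* they were *N6amt2* (0.986), *Zfp422* (0.982) and *Luc7l3* (0.980). *Nrp2* followed *Rnf149* (0.991), *Tnnc2* (0.987) and *Ezh1* (0.985). For *Vegfb* (*Sae1*, *Nucb1*, *Psmd13*), *Nrp1* (*H2afy*, *Mr1*, *Ehd1*) and *Vegfc* (*Fam131b*, *Cd248*, *Stc2*), over 6% of genes exceeded 0.95, so the ranking singles out little.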

How the data were processed

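RNA of 6 mouse libraries was sequenced, 1 per condition, from a stranded mRNA kit. Per the paper's methods, the authors quantified trimmed reads with Kallisto (version and annotation release not given in the sources used here), and deposited, for 88198 transcripts, estimated counts, TPM, lengths and effective lengths. The methods name a human reference (hg38), whereas the identifiers are mouse Ensembl ones. The deposited fold change, a ratio of the MEF libraries, gave gene symbols and nothing else. No symbol stood beside 1006 transcripts, whose counts (0.372% to 0.468% per library) were left out of sums and tests.

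TPM and counts were summed per symbol. For the kidney lines, the estimated counts were rounded, passed through filterByExpr and scaled with TMM factors, and the quasi-likelihood test of edgeR was run (line and treatment as terms, Benjamini-Hochberg adjustment at 0.05). P-values measure the spread left after the line and treatment terms. For rapamycin this is the difference in response between the 2 lines, which may differ from the spread between cultures. For TJ against MKOC no second culture of a line was labelled, so the p-values do not measure the spread between cultures of a line. The lines pair the libraries because the labels name each library's line, and the deviations of a line's 2 libraries had a correlation of 0.56. The MEFs were compared by log2(TPM + 1) among symbols of at least 1 TPM in either library, with exact Poisson 95% intervals for counting error only, and 2-fold as the limit. Named genes were all 10 members, from each list at most the 3 largest changes past the threshold, and, for members of at least 10 TPM in some library, the 3 most alike genes. Markers of other cell types, *Tsc2*, *Trp53* and *Hif1a* in the MEFs were named outside this rule, after their values were seen. The members and lists were chosen with earlier results of these data known. The rapamycin term of the edgeR fit was tested on simulated counts, with the same dispersion for all genes and the same response in both lines. The other steps were not simulated. Models ran in R 4.3.3 with DESeq2 1.42.0, edgeR 4.0.16 and limma 3.58.1, and sums, intervals and plots in Python 3.11.15 with pandas 2.3.3, numpy 2.4.6, matplotlib 3.10.9 and scipy 1.17.1. Alternatives were DESeq2, RLE scaling, limma on log2 TPM, no filter, models without a term, single lines, and for the MEFs other pseudocounts, scalings and filters.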

Additional observations from a re-analysis of the deposited data

Results flagged for a closer look

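The contrast of TJ with MKOC cells had opposite signs in the untreated and the rapamycin libraries for 2 members. For *Figf* the log2 difference was 0.56 untreated and -0.74 after rapamycin. For *Pgf* it was -0.14 and 0.59, on 9 to 28 counts per library. With 1 library per line and treatment, these differences were not tested.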

How the results depend on the processing

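Without the cell line as a block, edgeR called 1275 genes and 1 member (*Vegfa*) for rapamycin, against 4526 and 3, and *Figf* (adjusted p = 0.0896) and *Nrp1* (adjusted p = 0.160) were no longer called. Leaving out a line gave -1.60 to -1.49 for *Vegfa*, 0.40 to 1.71 for *Figf* and -0.53 to -0.25 for *Nrp1*, with no test. For TJ against MKOC, DESeq2 called 622 genes, limma 605, no count filter 1753 and no treatment term 0 (702 at an unadjusted p under 0.05), against 1139, and members called stayed at 0. In untreated libraries alone, *Figf* (0.56) and *Pgf* (-0.14) changed sign. For the MEFs, adding 5 TPM left 2139 symbols and 2 members past 2-fold, against 3884 and 4, and requiring 10 TPM left 2440 symbols. All 60 values of single members in the MEFs and all 42 for rapamycin kept their direction under these alternatives, which do not include centring on the median of all symbols, where *Pgf* turned negative (-0.18). With coding transcripts alone, an alternative chosen after seeing the data, the ratio of *Vegfa* to *Vegfb* TPM in untreated MKOC cells was 0.759 against 1.08, and in the other 5 libraries it kept its side of 1. With 9 to 28 counts of *Pgf* in the kidney lines and 1 to 5 of *Flt4*, depth limits both genes there.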
